A study of Rattus norvegicus with 3 samples.

Results

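DNA methylation calls around a pair of genes of DNA replication, Mcm6 and E2f7, were examined in livers of newborn male Wistar rats aged 1 day. The members are all called regions, in the 3 deposited lists, that overlap chr13:40550000-41550000 (the Mcm6 window) or chr7:48950000-49950000 (the E2f7 window) on the rat assembly rn4. There are 40 such regions in the Mcm6 window and 30 in the E2f7 window, or 70 of the 95306 regions of the series. The windows, each of 1 Mb, were chosen by measured values of this series: each was placed around a region with a MACS call for more reads in MLP than in C. The presence of that called region in the MLP vs C list is therefore not a finding.

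The groups are named by the diet of the dam in pregnancy. MLP pups came from a dam fed a low protein diet, MLP-F pups from a dam fed the low protein diet with added folate, and C pups from a dam fed the normal diet. Captured DNA was sequenced as 1 pooled library per group, from 6 animals by the sample labels, while the methods of the study give another number of animals, all from a single litter. Litter, dam and diet can therefore not be told apart, and no spread between animals is available.

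MCM6 is a subunit of the ring-shaped MCM helicase, which is loaded on replication origins before S phase and unwinds DNA once replication starts. E2F7 is an atypical member of the E2F transcription factors. It represses genes that other E2F proteins activate in late G1, among them genes of the MCM family, and in mouse liver it is known for its part in the polyploidy of hepatocytes. The assay used a methyl-CpG binding domain (MBD), which holds DNA fragments that carry methylated CpG, so more reads from a region mean that more of the captured fragments of that library came from it. It does not give the percent of methylation at a CpG.

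The study designed primers to amplify its differentially methylated region of Mcm6 from bisulphite-treated DNA. The primers are shown because they mark the assay of this locus. They were designed to the forward strand. The primers were not placed on rn4 here, so their position relative to the called region was not checked. The study reported a significant difference in methylation between C and MLP at this locus from cloned bisulphite sequences. The bisulphite data were not analysed here. After bisulphite treatment an unmethylated C reads as T, and primers are placed on sequence without CpG so that they bind methylated and unmethylated copies alike.
Mcm6 forward: tttggtaaatggagttgggatataa
Mcm6 reverse: ctttacaacatctctaaacaaatctatcc
The forward primer, of 25 bases, holds 0 C and 9 T, and the reverse primer, of 29 bases, holds 0 G and 11 A. Neither primer holds a CpG.

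The promoters of the genes, 250 bases before and 50 after the start in RefSeq on the newer assembly GRCr8, are shown to set the CpG-dense gene starts beside the called regions, which the study placed in an intron of Mcm6 and upstream of E2f7. Capitals mark CpG.
Mcm6 promoter: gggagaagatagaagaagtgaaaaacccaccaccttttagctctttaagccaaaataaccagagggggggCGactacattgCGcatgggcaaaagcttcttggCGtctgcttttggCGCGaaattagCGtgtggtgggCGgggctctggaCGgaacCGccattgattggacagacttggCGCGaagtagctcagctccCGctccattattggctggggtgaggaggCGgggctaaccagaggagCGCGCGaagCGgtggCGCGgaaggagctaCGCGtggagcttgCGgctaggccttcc
E2f7 promoter: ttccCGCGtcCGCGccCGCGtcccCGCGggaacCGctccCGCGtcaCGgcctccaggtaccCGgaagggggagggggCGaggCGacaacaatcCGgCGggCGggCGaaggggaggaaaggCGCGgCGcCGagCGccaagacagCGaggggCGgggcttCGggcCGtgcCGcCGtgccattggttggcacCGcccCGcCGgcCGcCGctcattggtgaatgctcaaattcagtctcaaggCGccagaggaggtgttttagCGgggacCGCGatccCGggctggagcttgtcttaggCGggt
The Mcm6 promoter (GRCr8, chr13:42404303-42404602, minus strand) holds 22 CpG and the E2f7 promoter (GRCr8, chr7:48036653-48036952, plus strand) 41, against a median of 7 over the 33469 promoters of the table. Of those promoters, 79.0% hold fewer CpG than that of Mcm6 and 97.2% fewer than that of E2f7. TTTGGCGC, TTTCGCGC, TTTCCCGC and TTTGCCGC, letters of the E2F consensus, were searched on both strands. TTTGGCGC (in 0.493% of all promoters) and TTTCGCGC (0.326%) each occur in the Mcm6 promoter, where they overlap on opposite strands, while TTTCCCGC (0.974%) and TTTGCCGC (0.415%) do not, and none of these letters occur in the E2f7 promoter. A match is a description of the letters and not a site, and these gene starts were not located on rn4, so no called region is assigned to a promoter.

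Each region has a score from the program MACS, which is 10 times the −log10 of its p. The lowest score in every list is 50, or a p of 1e-05. The list named MLP vs C holds regions with more reads in MLP than in C relative to depth. The list named MLP vs MLP-F holds regions with more in MLP than its folate counterpart, and the list named MLP-F vs C holds those with more in MLP-F over C. The opposite direction was not analysed here. The lists share libraries, so they are not independent of each other. MLP is the higher library where it is set against C or MLP-F, and C is the lower library against MLP or MLP-F. MLP-F is the lower library in MLP vs MLP-F and the higher library in MLP-F vs C. A region of both those lists would have MLP-F called below MLP and above C. A score also depends on the depth of its libraries, which these files do not hold. The read totals that the study gives, highest for MLP and lowest for C, were not used here, and their part in the calls was not tested. The lists carry no false discovery rate, so a call here means a listed region and no more. With MLP as the higher library, the sets that the study selected by such a rate were far smaller than these lists. It reported finding no differentially methylated region when MLP-F was set against C. The MLP-F vs C calls given here, that at Mcm6 included, therefore belong to no set that the study selected. The study reported Mcm6 as differentially expressed, but not among such genes near a region of its selected MLP vs C set. It also stated that its bisulphite checks took regions at a looser rate than its annotation did. So the MLP vs C call at Mcm6 is not taken here as part of that set. Nor is the MLP vs MLP-F call at E2f7 taken as part of a selected set. Absence from a list says only that the score was under 50, not that a pair of libraries were equal.

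The intronic region of Mcm6 was called above C in both low protein groups, and MLP was not called above MLP-F there. In the MLP vs C list it spans chr13:41055046-41056193 (1148 bp) with a score of 50.5, at place 35608 of 35998. It is thus near the foot of its list, and 14 of the other regions of its window scored higher in the same list while 1 scored lower. In the MLP-F vs C list the region spans chr13:41054853-41055638 (786 bp) with a score of 60.5, at place 17643 of 25578. The MLP-F vs C region starts 193 bp before that of MLP vs C and shares 593 bp with it, which is 51.7% of the MLP vs C region and 75.4% of the MLP-F vs C region. The last 555 bp of the MLP vs C region lie outside the MLP-F vs C region.

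The region assigned to E2f7 showed the other arrangement. MLP was called above C and above MLP-F, with no MLP-F vs C region across it. Its position in both lists is chr7:49473463-49474025 (563 bp). The score was 128 in the MLP vs C list, at place 6715 of 35998, and 50.7 in the MLP vs MLP-F list, at place 33085 of 33730. The call against C was hence among the upper 18.7% of its list, whereas the call against MLP-F was close to the lowest score that is listed. E2f7 is the name of the nearest gene in the study's annotation, and the region lies outside the gene.

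**Figure D1:**
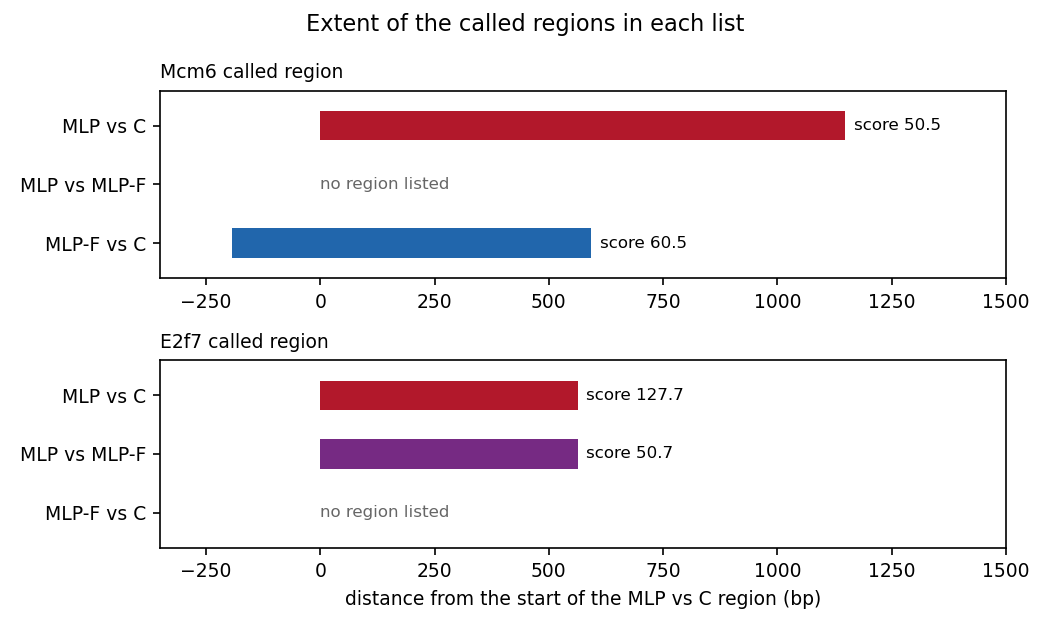
Extent of the Mcm6 and E2f7 called regions in each list, in bp from the start of the MLP vs C region (x axis); bars are the listed regions with their scores. At Mcm6 the MLP-F vs C region starts 193 bp earlier, and at E2f7 the MLP regions against C and against MLP-F have the same ends.

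In the lists at large, a region in which MLP was called above C and above MLP-F had the same start and end in each list. This held for 11 of 11 such regions in the windows and for 14194 of 14194 pairs over the genome. Regions called above C in both low protein groups had different ends in 5 of 5 window pairs, and 0 of 8175 pairs over the genome had the same start and end. The extent of a region thus went with the library that was taken as the higher one, and the shared ends at E2f7 and the shifted ends at Mcm6 are what every such pair of the series showed.

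The Mcm6 window held 16 MLP vs C regions, 10 MLP vs MLP-F regions and 14 MLP-F vs C regions. Regions were merged where they overlapped across lists, which gave 32 separate loci. Of these, 8 were listed in MLP vs C alone, 5 in MLP vs MLP-F alone and 11 in MLP-F vs C alone. At a further 5, MLP was called above C and above MLP-F. At 3, the called region among them, both low protein groups were called above C. None was in all 3 lists (0 of 32, an upper Wilson limit of 10.7%), against 0.553% of the 72909 loci of the genome.

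Of the 5 Mcm6 window regions in which MLP was above both other libraries, the highest by its score against C was at chr13:41009870-41010760, which scored 105 against C and 92.9 against MLP-F. It lies 44.3 kb below the called region and was the only MLP vs C region of this window with a score of at least 100 (6.25%, 95% Wilson interval 1.11 to 28.3%), against 31.1% of the whole list. In the MLP vs MLP-F list it is followed after 656 bp by another region, chr13:41011417-41012305 with a score of 73.7, which the MLP vs C list does not hold. The nearest of the 5 to the called region, chr13:41077292-41077585, lies 21.1 kb above it and is the shortest region of this window (294 bp). It scored 71.1 against C and 67.3 against MLP-F. The other 3 scored between 50.7 and 73.7 against C and between 52.5 and 92.8 against MLP-F. Among them chr13:40791114-40792713, the longest MLP vs C region of the window with 1600 bp, scored 50.7 for MLP vs C but 92.8 for MLP vs MLP-F. It was the only 1 of the 5 with the higher score against MLP-F. Over the genome, 6498 of 14194 such regions scored higher against C and 6923 scored higher against MLP-F, with the rest tied.

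The regions higher than C in both low protein groups were 3 in the Mcm6 window. Besides the called region they were chr13:41177639-41178279, with scores of 78.1 in MLP vs C and 76.2 in MLP-F vs C, and chr13:40613777-40614150, with scores of 65.8 in MLP vs C and 57.7 in MLP-F vs C. The called region had the smallest overlap of the 3, since the others shared at least 88.0% of the MLP vs C region. All 6 scores were below 100.

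The highest scores of the Mcm6 window were in the MLP-F vs C list, in regions that the MLP vs C list did not hold. They were chr13:41290093-41291030, with a score of 154 at place 1326 of 25578, and chr13:41248573-41249385, with a score of 126 at place 2474. These lie 234 kb and 192 kb above the called region, within a run of 6 MLP-F vs C regions above it. The lower end of the window held 6 more MLP-F vs C regions before the first MLP vs MLP-F region, among them the longest of either window, chr13:40658622-40661420 with 2799 bp and a score of 85.0. In between, the MLP-F vs C list was empty over 206 kb, where the MLP vs C list held 4 regions and the MLP vs MLP-F list 2. Near the upper end, MLP-F vs C and MLP vs C regions alternated without overlap: chr13:41350430-41351424 (89.6, MLP-F vs C), chr13:41355893-41356509 (75.4, MLP vs C), chr13:41358280-41359066 (63.1, MLP-F vs C) and chr13:41365123-41366349 (83.3, MLP vs C).

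**Figure D2:**
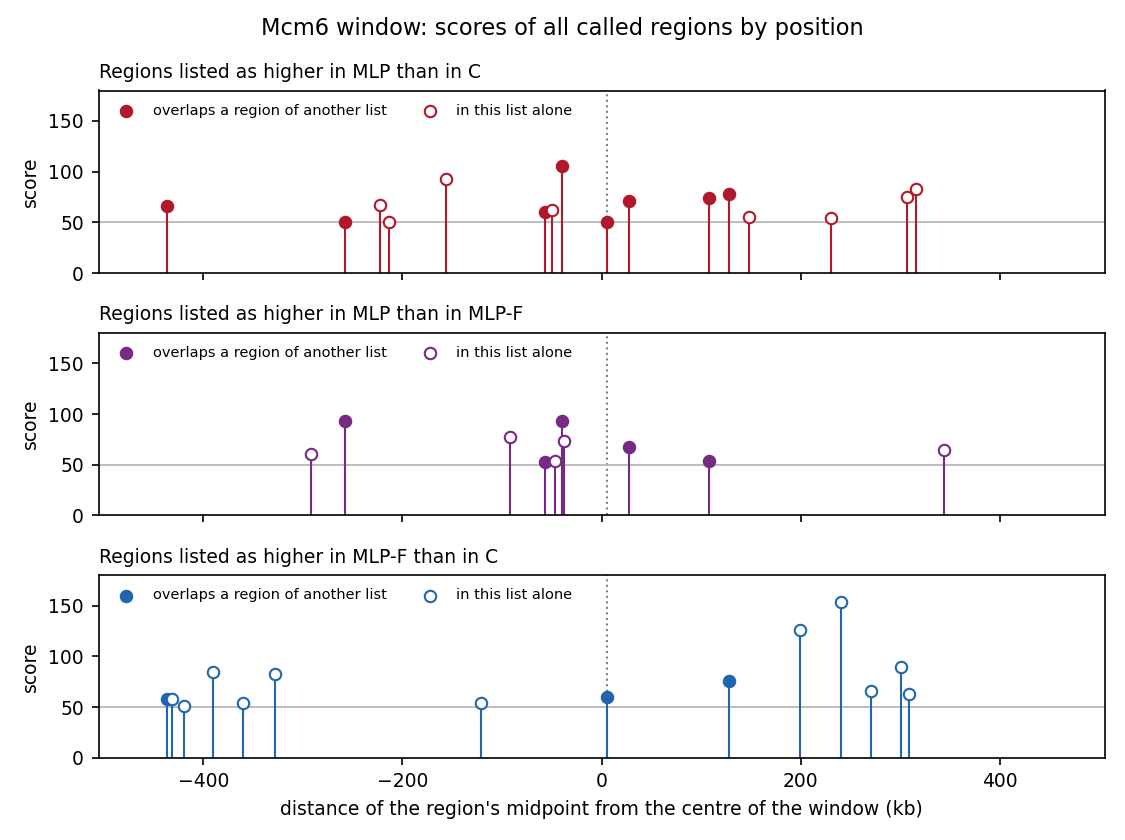
Scores of all 40 called regions of the Mcm6 window (y axis) by distance of the midpoint from the window's centre in kb (x axis), 1 panel for each list. Filled points overlap a region of another list, open points do not, the dotted line marks the called region and the grey line the lowest score of 50. The 2 highest points, 154 and 126, are MLP-F vs C regions above the called region.

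The E2f7 window held 13 MLP vs C regions, 8 MLP vs MLP-F regions and 9 MLP-F vs C regions, in 22 separate loci. Of these, 5 were listed in MLP vs C alone, 2 in MLP vs MLP-F alone and 7 in MLP-F vs C alone. At 6, the called region among them, MLP was called above C and above MLP-F, and at 2 both low protein groups were called above C. None was in all 3 lists (0 of 22, an upper Wilson limit of 14.9%).

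The 6 regions in which MLP was above both other libraries all lay at or above the called region. The highest by its score against MLP-F was chr7:49868225-49869899 (1675 bp), with a score of 142 in MLP vs C and 291 in MLP vs MLP-F, at place 1535 of 33730. It is preceded after a gap of 840 bp by chr7:49866288-49867384, with scores of 155 in MLP vs C and 53.9 in MLP vs MLP-F. The order of the scores was thus opposite in these neighbours. Another, chr7:49777668-49778022, had the highest MLP vs C score of the window, 162, and scored 179 in MLP vs MLP-F. The region next above the called region, chr7:49519946-49520745, lies 45.9 kb from it and scored 59.5 in MLP vs C and 163 in MLP vs MLP-F. The last, chr7:49697533-49698138, scored 58.9 in MLP vs C and 99.4 in MLP vs MLP-F. The called region and chr7:49866288-49867384 had the higher score against C, and the other 4 had the higher score against MLP-F, beside the nearly even split over the genome.

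The 2 regions higher than C in both low protein groups lay below the called region. At chr7:49182986-49183434 the MLP vs C score was 112, and the MLP-F vs C region across it (chr7:49182771-49183459) scored 185, at place 753 of 25578. At chr7:49252936-49253583 the MLP vs C score was 124, and the MLP-F vs C region across it (chr7:49253076-49253960) scored 163, at place 1090. These were the only MLP-F vs C regions of the E2f7 window with a score of at least 100 (22.2%, 95% Wilson interval 6.32 to 54.7%), against 19.1% of the whole list. They were also listed higher in rank for MLP-F vs C than for MLP vs C, at places 8942 and 7163 of 35998. Over the genome, the MLP vs C score was the higher one in 4849 of 8175 such pairs and the MLP-F vs C score in 3326.

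The lists thus differed in where they placed their regions along the E2f7 window. Above the called region there were 5 MLP vs MLP-F regions, with scores of 53.9 to 291, and 3 MLP-F vs C regions, which scored 51.5 to 57.9. Below it there were 2 MLP vs MLP-F regions, with scores of 52.4 and 101, and 6 MLP-F vs C regions, which scored 56.4 to 185. The first 384 kb of the window held no MLP vs MLP-F region, and 246 kb around the called region held no MLP-F vs C region. MLP vs C regions occurred on both sides, 5 below and 7 above. The arrangement was seen after the values were known and was not tested.

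**Figure D3:**
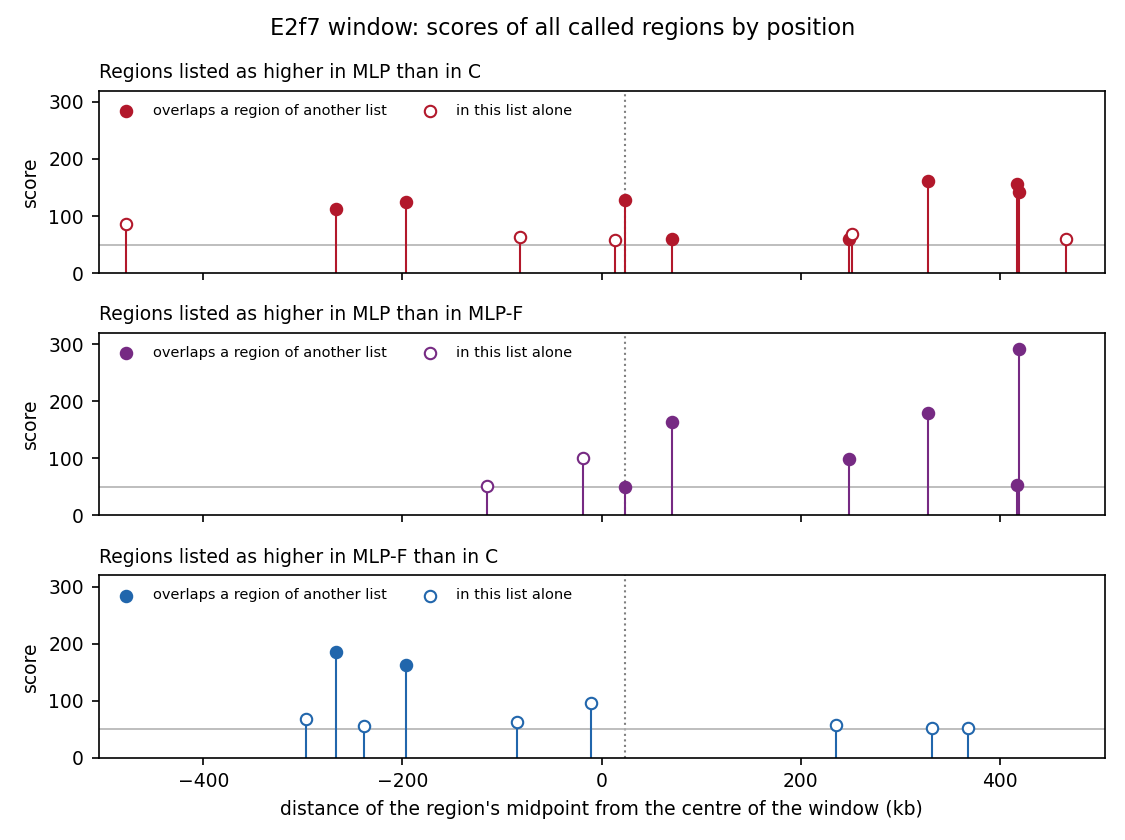
Scores of all 30 called regions of the E2f7 window (y axis) by distance of the midpoint from the window's centre in kb (x axis), 1 panel for each list, with symbols and lines as in the Mcm6 map. The MLP vs MLP-F region with the score of 291 is near the upper end, and the MLP-F vs C regions with 185 and 163 are below the called region.

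Set beside the whole lists, the share of regions in a further list was within its counting error in each window. Of the MLP vs C regions, 5 of 16 in the Mcm6 window (31.3%, 95% Wilson interval 14.2 to 55.6%) and 6 of 13 in the E2f7 window (46.2%, 23.2 to 70.9%) were also in the MLP vs MLP-F list, against 39.4% of the whole list. The MLP-F vs C list held 3 of 16 (18.8%, 6.59 to 43.0%) and 2 of 13 (15.4%, 4.33 to 42.2%), against 22.6% of the whole list. Taken from the other lists, 5 of 10 and 6 of 8 MLP vs MLP-F regions were in the MLP vs C list, against 42.1%, and 3 of 14 and 2 of 9 MLP-F vs C regions were, against 31.8%. None of the MLP vs MLP-F regions of either window overlapped an MLP-F vs C region, against 1.27% of the whole MLP vs MLP-F list and, counted the other way, 1.67% of the MLP-F vs C list. Those lists use MLP-F on opposite sides and seldom overlap anywhere in the genome, so this is no result about the windows. In neither other list were 8 of 16 and 5 of 13 MLP vs C regions, against 39.1% of the whole list, 5 of 10 and 2 of 8 MLP vs MLP-F regions, against 57.8%, and 11 of 14 and 7 of 9 MLP-F vs C regions, against 68.1%. The called regions, which chose the windows, are counted in these shares. The intervals cover counting error only.

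The scores of the MLP vs C regions had a median of 66.3 in the Mcm6 window and 85.4 in the E2f7 window, against 77.4 over the whole list. For MLP vs MLP-F the medians were 66.0 and 100.3, against 81.8, and for MLP-F vs C they were 64.3 and 62.7, against 69.4. A score of at least 100 was reached by 0 of 10 MLP vs MLP-F regions in the Mcm6 window, with an upper Wilson limit of 27.8%, and by 4 of 8 in the E2f7 window (95% Wilson interval 21.5 to 78.5%), against 36.8% of the whole list. Among MLP vs C regions, 6 of 13 in the E2f7 window reached it (46.2%, 23.2 to 70.9%), against 31.1% of the whole list. In the Mcm6 window 2 of 14 MLP-F vs C regions did (14.3%, 4.01 to 39.9%), against 19.1% of the whole list. Regions of a window are neighbours and not replicates, so none of these differences was tested.

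**Figure D4:**
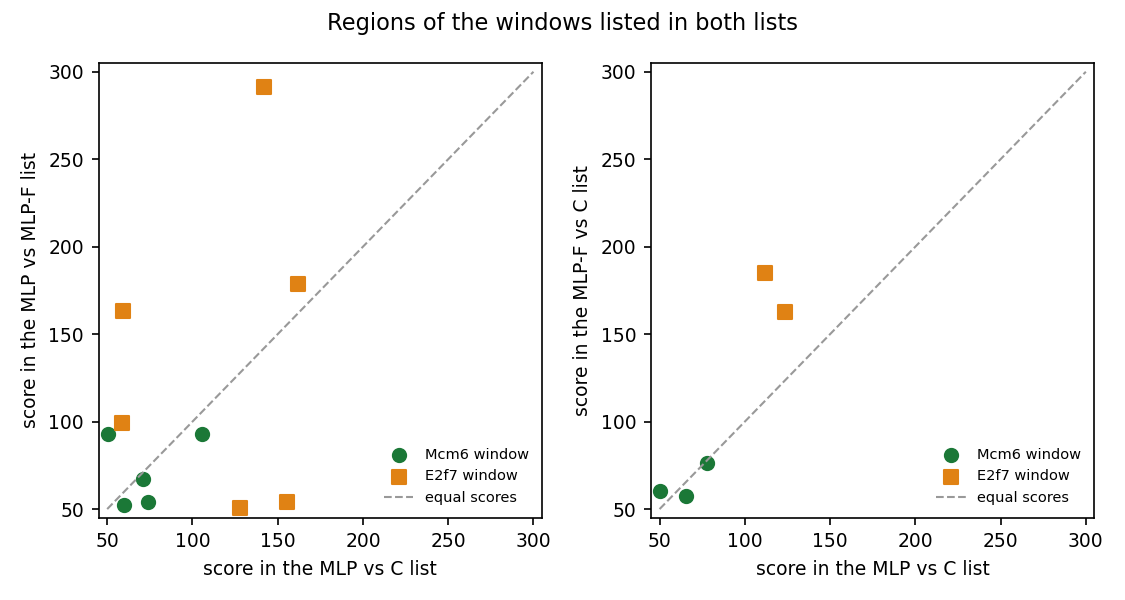
Scores of the window regions that are listed in 2 lists, with the MLP vs C score on the x axis and the MLP vs MLP-F score (left) or MLP-F vs C score (right) on the y axis; circles are Mcm6 window regions, squares E2f7 window regions, and the dashed line marks equal scores. The highest Mcm6 window value is 105, and the E2f7 window points reach 291.

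The number of regions per Mb was not extreme in either window. Over 2710 tiles of 1 Mb on the placed chromosomes, the median tile held 11 MLP vs C, 10 MLP vs MLP-F and 8 MLP-F vs C regions. The Mcm6 window, with 16, 10 and 14, had more than 66.9%, 47.8% and 75.8% of the tiles, and the E2f7 window, with 13, 8 and 9, more than 56.9%, 33.8% and 54.5%. The regions covered between 0.638% and 1.22% of a window in each list. Their median width was 665 bp in the Mcm6 window and 563 bp in the E2f7 window for MLP vs C, against 674 bp over the whole list.

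**Figure D5:**
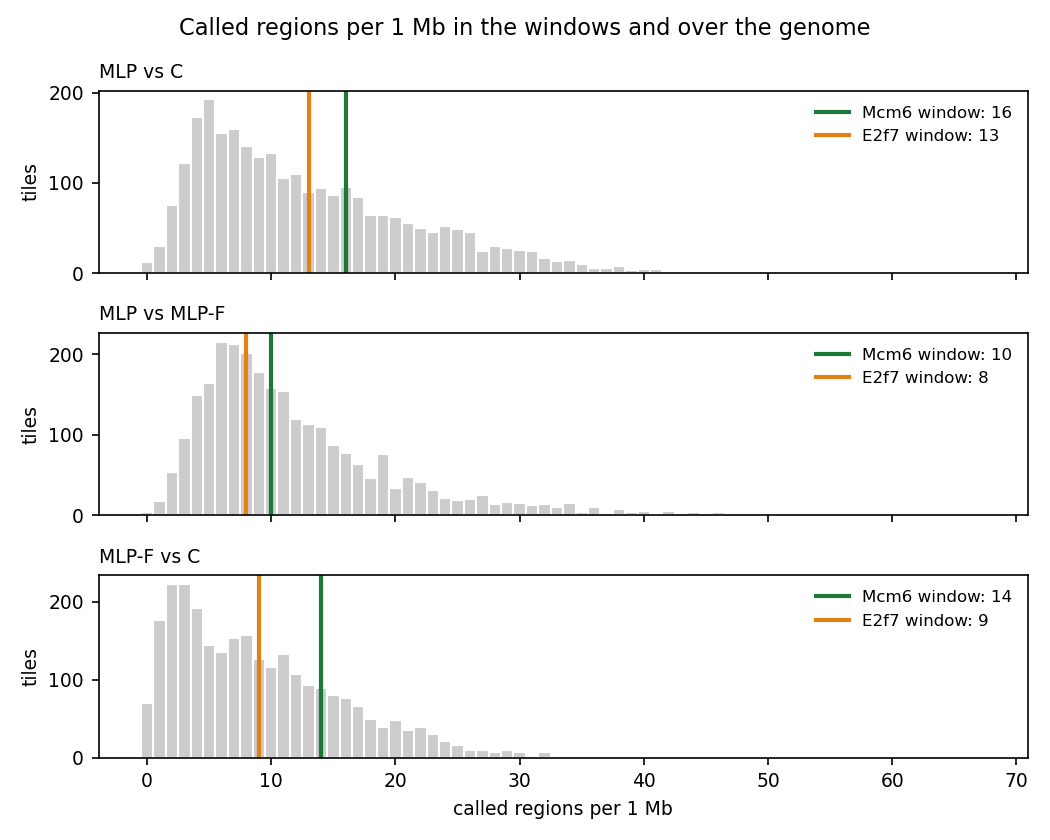
Number of tiles of 1 Mb (y axis) by called regions per tile (x axis) for each list, over 2710 tiles of the placed chromosomes; the green line is the Mcm6 window and the orange line the E2f7 window. The windows hold more regions than 33.8% to 75.8% of the tiles, depending on the list.

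At the edges of the Mcm6 window, the first region inside lies 63.8 kb from the lower edge (MLP vs C, 65.8) and the nearest one outside 38.6 kb from it (MLP vs C, 70.3), while at the upper edge the last region inside is 156 kb away (MLP vs MLP-F, 64.7) and the nearest outside 97.4 kb away (MLP-F vs C, 209.8). At the E2f7 window the regions just inside lie 22.3 kb (MLP vs C, 85.4) and 34.1 kb (MLP vs C, 60.6) from the edges, and those just outside 21.8 kb (MLP-F vs C, 83.5) and 18.0 kb (MLP-F vs C, 74.7). The genes beside Mcm6 and E2f7 were not analysed here, and neither were the regions of other MCM, origin licensing and E2F genes.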

How the data were processed

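Methylated DNA was captured from pooled liver DNA of MLP, MLP-F and C pups with the MethylCap kit and sequenced, with 1 library per group. Bowtie was used by the authors for the alignment of read pairs to rn4, and MACS to call regions in 1 library against another. CASAVA, Bowtie and rn4 also stand in the submitters' processing notes. Software versions were not given in the sources used here. Each score deposited by the authors is the −log10 of the MACS p of a region, times 10. The lists hold no read counts, the read totals given by the study were not used, and no spread or test of diet was possible.

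Starts were converted to 1-based positions. Overlap means at least 1 bp, and places by score give tied regions the last of their places. Windows were set beside tiles of 1 Mb. Shares have 95% Wilson intervals, which also give the limit for a share of 0. The overlap count was tested on simulated data. Regions were named by a rule: those overlapping the called regions, the highest-scoring of each window and list, and those in 2 or more lists. The other regions named were chosen after their values were seen. Alternatives were a score of at least 100, narrower and wider windows, a reciprocal overlap of 50%, a gap of 1 kb and leaving out the called regions. The windows, lists and rule were chosen with earlier results of these data known. Promoters came from RefSeq (GRCr8, 2 of 2 genes matched) and primers from the supplement of the study. Python 3.11.15, pandas 2.3.3, numpy 2.4.6, SciPy 1.17.1 and matplotlib 3.10.9 were used.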

Additional observations from a re-analysis of the deposited data

How the results depend on the processing

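With a score of at least 100 in every list, the regions per Mb of the Mcm6 window were 1 in the MLP vs C list, 0 in the MLP vs MLP-F list and 2 in the list of MLP-F vs C, and those of the E2f7 window 6, 4 and 2 in the same order. The single MLP vs C region that is left in the Mcm6 window was in neither other list at that score, so both shares were 0%, of 1 region. The 2 shares of the E2f7 window stayed within their intervals at 33.3% each, of 6 regions. The Mcm6 called region and the MLP vs MLP-F call of the E2f7 region are themselves below that score. All 10 values with windows of 1 Mb on each side, all 6 with 250 kb on each side, and all 4 with a gap of at most 1 kb stayed within 1.5 times the count or within the interval of the share. With 250 kb on each side the Mcm6 window had 24 MLP vs C, 14 MLP vs MLP-F and 10 MLP-F vs C regions per Mb. The full window had 16, 10 and 14, so the 24 lies at the limit and the order of the lists changed. A reciprocal overlap of 50% could change only the 3 values that set MLP vs C regions beside MLP-F vs C regions, since the other pairs have identical ends, and it moved none of the 3. Leaving out the called regions takes 1 region from each MLP vs C count by construction, and the shares then stayed within their intervals. The Mcm6 called region had no value in MLP vs MLP-F, nor the E2f7 one in MLP-F vs C. No paired analysis was possible because each group has 1 library. With 1 pooled library and 1 litter per group, the lists give no replicate check of a call, and the bisulphite clones from single livers in the study were not analysed here.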
